A study of Homo sapiens with 9 samples.

Results

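The response to drug exposure that vemurafenib and cisplatin had in common was described as the genes for which all 6 treated A375 libraries lay on the same side of all 3 untreated controls. Of 18430 genes in the deposited table, 2296 lay above the controls in every treated library and 2515 lay below. After a filter on low counts, 2200 of 14001 tested genes lay above (15.7%) and 2353 below (16.8%). The mean of both drugs, each with equal weight, was then tested against the controls, and 2070 of the genes that lay above (14.8% of tested genes) and 2221 of those that lay below (15.9%) also passed in that direction. These 4291 genes (30.6%) are called the shared rises and shared falls below. The test and the rule use the same libraries. Passing, and the p-values of genes picked by the rule, are therefore not separate support for them. Both drugs were compared with the same 3 controls, so a control library that happens to be high or low moves both comparisons together.

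A375 is an established human melanoma cell line, labelled BRAFV600E in all 9 samples, which are thus samples of 1 line. Control cells (3 libraries) were kept in normal culture. Vemurafenib cells (3 libraries) received 10 µM of this inhibitor of mutant BRAF for 3 days, and cisplatin cells (3 libraries) 2 µM of this DNA-crosslinking platinum compound for 1 day. All treated cells went back to drug-free culture, and the libraries of every group were made at day 7, counted in the labels once from the treatment and once as the day of sequencing. Whether the 3 libraries of a group are separate cultures is not in the labels, and the p-values below therefore measure only how far these samples spread, a spread that may be technical. Dose, exposure and time without drug differ between the drugs and cannot be told apart from the drug itself.

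Vemurafenib blocks the ERK signalling that mutant BRAF drives, and cisplatin damages DNA and activates p53. Cells that leave the cell cycle after either kind of stress can become quiescent or senescent. Senescent cells lose lamin B1 and many chromatin proteins, enlarge their lysosomes and often secrete cytokines under the control of NF-kB. Class II antigen presentation molecules, which show peptides to helper T cells, are made mainly by immune cells, but melanoma cells can make them too, and the coactivator CIITA switches them on.

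Libraries held 14481020 to 16038475 estimated counts. SOX10, a transcription factor of the neural crest and melanocyte lineage, stood at 586 to 869 TPM (transcripts counted relative to length and library total) in the 9 libraries. Of the pigment genes TYR was under 0.5 TPM in every library, MLANA was at 0.09 to 0.59 TPM and PMEL at 1.55 to 5.24 TPM, while DCT was at 79.6 to 181 TPM after vemurafenib and under 0.5 TPM in all other libraries. Vemurafenib replicate 1 stood apart on the third principal component (39.1, against -22.3 and -22.7 for the other libraries of its group). Without it the test passed 4118 genes higher and 4489 lower, against 3149 and 3491 with all libraries. Most levels below are CPM, counts relative to the library total after TMM scaling, with 3 libraries per group.

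The size of the shared response was moderate for most genes and the drugs often differed in it. The median log2 change, as the mean of both drugs, was 0.71 for shared rises and -0.89 for shared falls. Of all calls of the mean test 47.4% were higher, and on the scale of log2(TPM + 1) 58.2% were. Taking the treated libraries as 1 group of 6, so that the gap between the drugs enters the error, 1697 genes were higher and 1504 lower. Each drug changed the gene by at least 1 on the log2 scale for 437 shared rises (3.12% of tested genes) and 515 shared falls (3.68%). The test of vemurafenib against cisplatin, which does not use the controls, passed 33.9% of the shared rises (422 higher after vemurafenib and 279 higher after cisplatin) and 47.6% of the shared falls (555 and 502), where it passed 43.7% of all tested genes. The 95% interval of the drug difference lay within 1 of 0 on the log2 scale for 1609 shared rises (77.7%) and 1332 shared falls (59.97%), against 66.0% of all tested genes. Transcripts of the shared falls had a median effective length of 3310 bases, those of the shared rises 2814 bases and all tested genes 3002 bases. In controls the median level was 24.3 TPM for shared falls, 14.3 TPM for shared rises and 18.1 TPM for all tested genes.

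**Figure D1:**
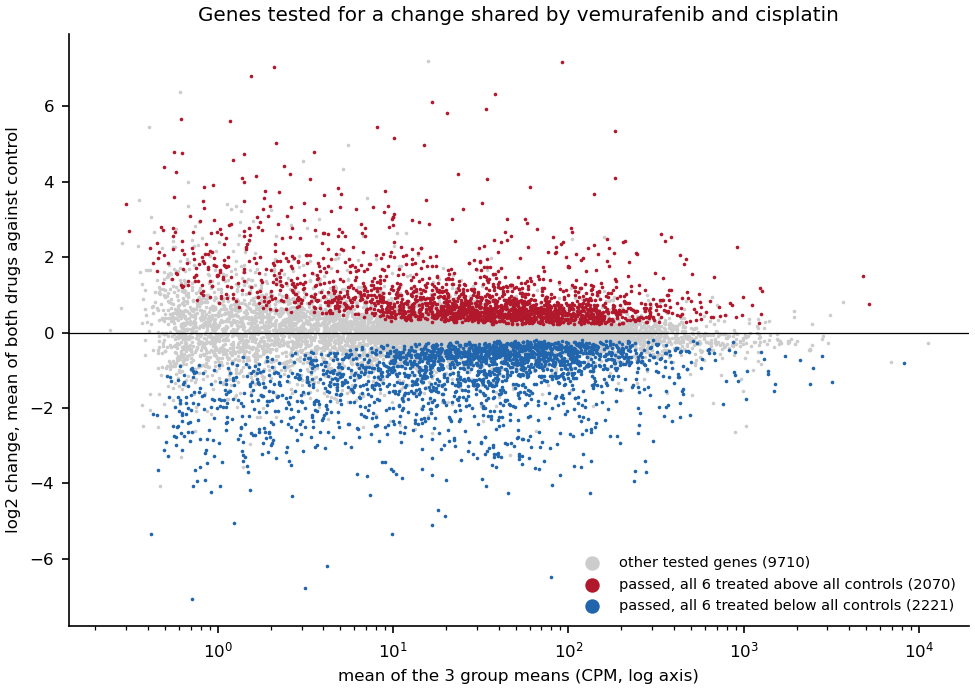
Each point is a tested gene, with the mean of the 3 group means in CPM on a log axis and the log2 change of the mean of both drugs against control on the other axis. The 2070 shared rises are red, the 2221 shared falls are blue and all other tested genes are grey, and coloured genes occur at every level.

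The rule has a sharp edge. TP53INP2 was just inside, with controls at 24.71 to 33.71 CPM and treated libraries at 33.72 to 70.1 CPM, and ZNF682 was just outside, with controls up to 7.956 CPM and the lowest treated library at 7.955 CPM. On the lower side ACTL6A was just inside, with controls from 52.63 to 57.8 CPM and treated libraries from 27.0 to 52.63 CPM, the groups meeting at the digits given. HIF1A, the oxygen-regulated transcription factor subunit, was just outside, with controls at 305.9 to 337 CPM and treated libraries at 133 to 306.0 CPM. A further 1079 genes passed the test upwards and 1270 downwards without lying clear of the controls, and 130 and 132 genes lay clear of them without passing.

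Among the genes that rose most in both drugs were secreted proteins, class II genes and neural genes. MUC7, a secreted salivary mucin, was at 1.11, 0.199 and 0.835 CPM in controls, at 26.01, 16.8 and 35.9 CPM after vemurafenib and at 73.0, 78.1 and 71.6 CPM after cisplatin. TAC1, which encodes the neuropeptide substance P, was at 0.326, 0.332 and 0.835 CPM in controls, 122, 99.7 and 70.0 CPM after vemurafenib and 15.02, 18.1 and 19.0 CPM after cisplatin. Neither gene had a treated library near its controls, and the drugs differed in opposite ways, with MUC7 higher after cisplatin and TAC1 higher after vemurafenib. The shared log2 change was 5.93 (SE 0.36, adjusted p = 2.34e-07) for MUC7 and 6.34 (SE 0.31, adjusted p = 3.55e-08) for TAC1. TCN1, a secreted vitamin B12 binding protein, was at 2.94, 7.04 and 7.45 CPM in controls, 129.5, 115 and 154 CPM after vemurafenib and 265, 296 and 688 CPM after cisplatin. MGAM2, of the maltase-glucoamylase family, was at 12.6, 18.9 and 15.5 CPM in controls, 132, 315 and 284 CPM after vemurafenib and 233, 255 and 388 CPM after cisplatin. For MGAM2 the libraries of both drugs overlapped, and the 95% interval of the drug difference ran from -0.89 to 0.37 on the log2 scale.

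S100B, a calcium-binding protein used as a melanoma serum marker, was at 15.1, 16.3 and 13.9 CPM in controls, 329, 231 and 244.5 CPM after vemurafenib and 121, 122 and 166 CPM after cisplatin. MERTK, a receptor kinase for the clearance of dead cells, was at 1.30, 2.12 and 0.963 CPM in controls, 39.7, 67.2 and 59.7 CPM after vemurafenib and 13.02, 13.3 and 12.5 CPM after cisplatin. Both were highest after vemurafenib in every library, with drug differences of 0.97 for S100B and 2.10 for MERTK on the log2 scale. The transporter gene ABCA8 rose by 3.75 (SE 0.25, adjusted p = 4.17e-07), with 0.465 to 1.22 CPM in controls, 11.1 to 14.9 CPM after vemurafenib and 11.5 to 13.6 CPM after cisplatin. FOLH1, the gene of prostate-specific membrane antigen, rose by 3.51 (SE 0.18), and RELN, which encodes the matrix protein reelin, by 5.46 (SE 0.56) from 10 counts summed over the controls (1.43 on the scale of log2(TPM + 1)). HLA-DQB2, a class II gene that is a near copy of HLA-DQB1, rose by 5.17 (SE 0.49) from 13 counts summed over the controls, and the split of reads between such copies is uncertain.

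By the smaller of both drugs' changes, the largest shared fall was that of CA9, which encodes a carbonic anhydrase that cells make when oxygen is scarce. CA9 was at 247, 272 and 184 CPM in controls, 0.520, 5.11 and 2.75 CPM after vemurafenib and 2.15, 2.31 and 2.80 CPM after cisplatin. No treated library came near a control, the treated libraries of both drugs overlapped, and CA9 fell by 6.49 on the log2 scale (SE 0.33, adjusted p = 5.24e-08). MMP9, a gelatinase, was at 41.5, 60.7 and 39.4 CPM in controls, 2.08, 1.496 and 1.71 CPM after vemurafenib and 1.45, 0.746 and 0.999 CPM after cisplatin. EPHA7, an ephrin receptor, was at 44.7, 39.5 and 46.9 CPM in controls, 2.41, 3.87 and 3.98 CPM after vemurafenib and 2.42, 3.12 and 3.20 CPM after cisplatin. Treated libraries of both genes lay far below the controls, with shared log2 changes of -5.10 (SE 0.19) for MMP9 and -3.79 (SE 0.15) for EPHA7. PIM1, a cytokine-induced survival kinase, was at 17.4, 18.1 and 19.96 CPM in controls, 2.15, 1.87 and 1.47 CPM after vemurafenib and 1.04, 1.15 and 0.599 CPM after cisplatin. CSF2, the cytokine GM-CSF, had a log2 change of -5.36 (SE 0.33) and the integrin subunit ITGB4 one of -4.87 (SE 0.23), both with less left after vemurafenib than after cisplatin. SERPINB2, an inhibitor of plasminogen activators, and ESM1, an endothelial proteoglycan, followed with log2 changes of -4.32 and -4.72.

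A few of the largest falls ended at the limit of counting. ZP4, an egg coat glycoprotein gene, had 427 counts summed over the controls, 2 over the vemurafenib libraries and 6 over the cisplatin libraries. IL1RL1, the receptor of interleukin 33, had 560, 13 and 4 counts, and PLEK2, a cytoskeletal adaptor of the pleckstrin family, had 153, 1 and 15. ITPKA, an inositol trisphosphate kinase, went from 2.70 to 4.45 CPM in controls to 0.184 to 0.520 CPM after vemurafenib and 0.204 to 0.485 CPM after cisplatin. The plot of the largest changes by library shows these gaps for all 24 genes.

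**Figure D2:**
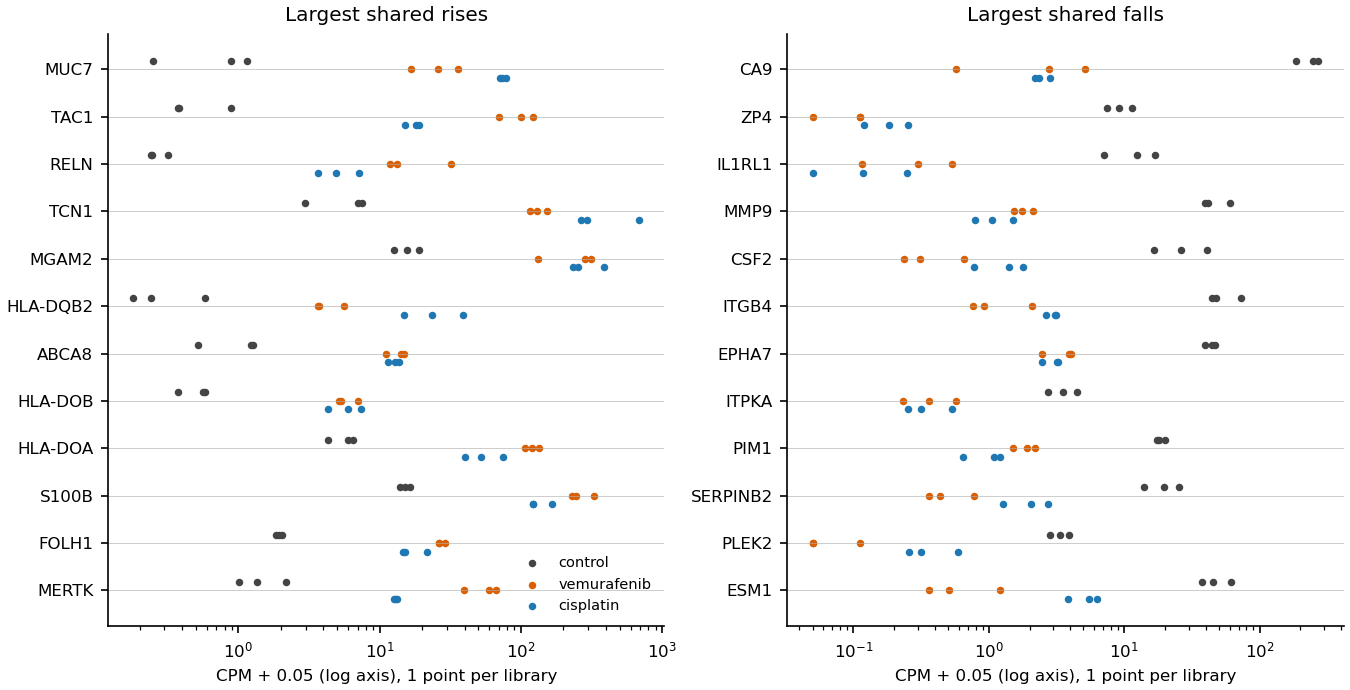
CPM plus 0.05 on a log axis for the 12 largest shared rises and the 12 largest shared falls, 1 point per library, with controls in dark grey, vemurafenib in orange and cisplatin in blue. Treated points lie on 1 side of the control points for each gene, as the rule requires, and CA9 has the highest control levels among the falls.

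The class II antigen presentation genes were the list with the highest median, and most listed members rose by like amounts in both drugs. Of 13 tested members 12 rose and 1 fell, all 13 lay clear of the controls, and the median log2 change was 2.36, against 0.00 for all tested genes, of which 22.5% rose and 24.9% fell. The medians were 2.41 after vemurafenib and 2.32 after cisplatin. CIITA, the master coactivator of these genes (chosen after its values were seen), was at 38.0, 33.2 and 40.6 CPM in controls, 156.0, 171 and 183 CPM after vemurafenib and 149.6, 176 and 222.5 CPM after cisplatin. HLA-DRA, the alpha chain of the DR molecule, was at 245, 252 and 273 CPM in controls, 1237, 1029 and 1064 CPM after vemurafenib and 1141, 1273 and 1692 CPM after cisplatin. For both genes the treated libraries of the drugs overlapped and lay far above the controls. The shared log2 change was 2.24 for CIITA (SE 0.14, adjusted p = 2.7e-07) and 2.26 for HLA-DRA (SE 0.14, adjusted p = 2.7e-07), and the 95% interval of the drug difference was -0.42 to 0.21 and -0.62 to 0.02. CD74, the invariant chain that guides class II molecules to the endosome (also chosen after its values were seen), rose by 1.51 (SE 0.16) from a control mean of 2942 TPM to 9040.0 TPM after vemurafenib and 8588 TPM after cisplatin. The rise was 3.01 for HLA-DQA1, 3.65 for HLA-DOB and 3.87 for HLA-DOA, the last 2 being parts of a regulator of peptide loading. HLA-DOA was the member for which the drugs differed (log2 difference 1.11, adjusted p = 0.000956, higher after vemurafenib), and the interval of the difference lay within 1 of 0 for the other 12. HLA-DQB2, a class II gene that is not in this list, differed more between the drugs. It rose by 3.875 after vemurafenib and 6.465 after cisplatin, with a difference interval of -3.33 to -1.84. CTSS, a lysosomal protease that trims the invariant chain, was the member that fell, from 51.7 to 64.6 CPM in controls to 20.9 to 25.95 CPM after vemurafenib and 27.9 to 32.0 CPM after cisplatin.

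The HLA members of the list lie together on chromosome 6, while CIITA, CD74 and CTSS lie on chromosomes 16, 5 and 1. Between the start of HLA-DRA and the end of HLA-DPB1 (chr6:32439887-33089696, GRCh38.p14) 17 genes were tested, of which 15 rose and 1 fell. The members BRD2 and PSMB9, which encode a chromatin reader and an immunoproteasome subunit, were the ones that did not rise. Class II genes are also expressed by immune cells. Of 11 blood cell markers measured, 6 were under 0.5 TPM in every library, among them PTPRC, the common leukocyte antigen, and the B cell and T cell genes MS4A1, CD3D and CD3E. The summed level of the 11 markers was 102 to 138 TPM in controls, 108 to 156 TPM after vemurafenib and 278 to 359 TPM after cisplatin, most of it from CD68, a lysosomal glycoprotein gene. LYZ, the lysozyme gene of myeloid cells, was at 9.03 to 12.9 TPM in controls, 5.79 to 13.3 TPM after vemurafenib and 44.3 to 76.9 TPM after cisplatin. The part of blood cells in the class II rise was not tested. HLA genes are near copies of each other, and the read split between them is uncertain.

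Promoters of class II genes hold a short set of boxes, among them an X box bound by RFX and a Y box with the letters CCAAT. RefSeq sequences (GRCh38.p14) from 250 bases before to 50 bases after the start were at hand for 10 of the 12 class II genes that rose. CCAAT, on either strand, was present in 9 of these 10 windows, against 36.7% of the windows of all 11329 tested genes with a sequence. A core of the X box, AGNAACNGA on either strand, chosen after the rises were seen, was present in 4 of 10, against 3.43%. The stretches of 120 bases with both are printed because they show where both sets of letters lie in 4 genes that rose. The capitals mark the X box core and, nearer to the start, the CCAAT letters or their reverse complement. They lie at chr6:32637243-32637362 on the plus strand (HLA-DQA1) and, on the minus strand, at chr6:32589870-32589989 (HLA-DRB1), chr6:32941029-32941148 (HLA-DMB) and chr6:33009634-33009753 (HLA-DOA).
HLA-DQA1: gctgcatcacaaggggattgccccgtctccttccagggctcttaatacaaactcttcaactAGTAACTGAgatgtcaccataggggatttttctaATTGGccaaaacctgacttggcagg
HLA-DRB1: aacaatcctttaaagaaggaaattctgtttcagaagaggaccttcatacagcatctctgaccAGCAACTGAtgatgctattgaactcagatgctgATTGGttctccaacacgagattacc
HLA-DMB: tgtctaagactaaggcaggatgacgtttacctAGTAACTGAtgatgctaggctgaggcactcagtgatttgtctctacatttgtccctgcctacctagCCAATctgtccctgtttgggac
HLA-DOA: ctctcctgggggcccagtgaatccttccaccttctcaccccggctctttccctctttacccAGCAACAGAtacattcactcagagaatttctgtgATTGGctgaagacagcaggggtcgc
The X box core began 102 bases before the start in HLA-DQA1, 101 in HLA-DOA, 88 in HLA-DMB and 79 in HLA-DRB1, and the CCAAT letters began 68, 67, 22 and 46 bases before it. In HLA-DMB the core and the CCAAT letters lay further apart than in the other genes printed. Whether the CCAAT letters of HLA-DMB are its Y box was not tested. A match is a description of the letters and not a measured site.

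Interferon-stimulated genes, which encode antiviral effectors, rose in 33 of 49 tested cases and fell in 4. Of these, 28 were shared rises (57.1% of the list, against 14.8% of all tested genes) and 1 was a shared fall. The median log2 change was 0.59, with 0.72 after vemurafenib and 0.70 after cisplatin. IFIT2, which binds viral RNA, was at 2.41, 2.46 and 2.44 CPM in controls, 19.0, 32.6 and 27.5 CPM after vemurafenib and 13.1, 12.1 and 14.5 CPM after cisplatin. TRIM22, an antiviral ubiquitin ligase, was at 2.67, 1.66 and 1.93 CPM in controls, 8.65, 10.5 and 12.9 CPM after vemurafenib and 22.6, 26.1 and 28.9 CPM after cisplatin. IFI6, a mitochondrial interferon-induced protein, rose by 2.30 (SE 0.15, adjusted p = 3.42e-07). All treated libraries of the 3 genes lay clear of the controls, as the rule that picked these genes requires. IFIT2 was higher after vemurafenib and TRIM22 after cisplatin. The shared fall was the chemokine CXCL11, chosen after its value was seen, with a log2 change of -1.78. Among 12 STAT and IRF factors, the signal carriers of interferon receptors, 6 rose and none fell. Shared rises numbered 5 (41.7% of the list, against 14.8% of tested genes). IRF9 and STAT2, parts of the complex downstream of type I interferon, rose by 1.12 (SE 0.14) and 1.11 (SE 0.10), both more after cisplatin.

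The interferon-stimulated response element, which this complex binds, has as its core the letters GAAA, any 2 bases, and GAAA again. This core was found, on either strand, in 15 of 23 windows of the interferon-stimulated shared rises, against 2.91% of the windows of all tested genes and 4.25% of those of all shared rises. All tested members of the list held it in 28 of 41 windows, a like share, so it was not particular to the members that were shared rises. No promoter sequence was at hand for IFIT2 or TRIM22. The IFI6 window at chr1:27672256-27672375 (minus strand) is shown because it holds the core 3 times, in capitals.
IFI6: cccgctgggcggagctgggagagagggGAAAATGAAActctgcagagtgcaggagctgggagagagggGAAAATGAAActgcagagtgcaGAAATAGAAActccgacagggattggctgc

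Class I antigen presentation genes, which show peptides to cytotoxic T cells, rose in 15 of 18 cases and fell in none. Shared rises numbered 13 (72.2% of the list, against 14.8% of tested genes). The median was 0.51. B2M, the light chain of all class I molecules, was at 843, 770.0 and 709 CPM in controls, 1297, 1314 and 1353 CPM after vemurafenib and 1173, 1210 and 1394 CPM after cisplatin, with drugs overlapping and a shared rise of 0.74 (SE 0.10). HLA-E, a ligand of inhibitory receptors on natural killer cells, rose by 1.13 (SE 0.12) and HLA-F by 1.51 (SE 0.18). Complement genes rose in 10 of 18 cases with 1 fall, and 8 were shared rises (44.4%, against 14.8% of tested genes). CFI, a protease that inactivates complement, was at 24.9, 24.3 and 21.1 CPM in controls, 93.3, 124 and 101 CPM after vemurafenib and 88.3, 94.1 and 113 CPM after cisplatin. CFI was picked as a shared rise, so its treated libraries lie clear of the controls by the rule. Its drug difference had an interval of -0.19 to 0.40. C1S, a protease of the first complement component, rose more after vemurafenib (15.8 to 31.9 CPM) than after cisplatin (3.60 to 4.40 CPM), from 0.835 to 1.96 CPM in controls.

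Genes of glycolysis and the hypoxia response fell in both drugs, with nearly the same median. Of 40 tested members 35 fell and none rose, 30 were shared falls (75% of the list, against 15.9% of tested genes) and the median log2 change was -1.09, with -1.10 after vemurafenib and -1.13 after cisplatin. Every library was grown in the same medium, and oxygen was not among the labels. BNIP3, a mitochondrial autophagy receptor induced by low oxygen, was at 368, 523 and 414 CPM in controls, 51.9, 66.2 and 73.5 CPM after vemurafenib and 65.0, 66.6 and 64.7 CPM after cisplatin. ENO2, an enolase of glycolysis, was at 267, 330.0 and 252.5 CPM in controls, 44.9, 55.3 and 46.1 CPM after vemurafenib and 45.9, 47.6 and 44.1 CPM after cisplatin. For both genes the treated libraries of the drugs overlapped, far below the controls. The log2 change was -2.75 for BNIP3 (SE 0.13, drug difference -0.37 to 0.30) and -2.58 for ENO2 (SE 0.10, drug difference -0.19 to 0.37). VEGFA, the angiogenic growth factor (chosen after its values were seen), changed less, from 91.4 to 96.2 CPM in controls to 47.6 to 63.4 CPM after vemurafenib and 48.0 to 53.6 CPM after cisplatin. The drugs differed in 17 of the 40 genes, 10 higher after vemurafenib and 7 higher after cisplatin, and in 26 the interval of the difference lay within 1 of 0. Both counts are near the shares over all tested genes, 43.7% and 66.0%.

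The factor HIF binds the letters ACGTG. They were found, on either strand, in 13 of 26 windows of the hypoxia and glycolysis shared falls, against 26.2% of all windows and 26.5% of those of all shared falls. All tested members of the list held them in 17 of 36 windows, a like share. The windows of the 3 named genes of the list are shown with the letters in capitals, at chr9:35673808-35673927 on the plus strand (CA9), chr10:131982032-131982151 on the minus strand (BNIP3) and chr12:6914367-6914486 on the plus strand (ENO2).
CA9: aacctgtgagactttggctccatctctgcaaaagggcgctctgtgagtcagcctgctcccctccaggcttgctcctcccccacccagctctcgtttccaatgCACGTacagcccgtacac
BNIP3: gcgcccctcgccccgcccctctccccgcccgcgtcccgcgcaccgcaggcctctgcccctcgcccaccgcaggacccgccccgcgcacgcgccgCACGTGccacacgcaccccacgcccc
ENO2: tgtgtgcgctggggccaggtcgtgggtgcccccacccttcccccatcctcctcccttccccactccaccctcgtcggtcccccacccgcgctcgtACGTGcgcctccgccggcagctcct
The letters began 18 bases before the start in CA9 and 118 in ENO2, and in BNIP3 a palindrome placed matches on both strands, from 134 and 133 bases before it.

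Among nutrient transporters the shared falls stood above the share over all tested genes and the shared rises did not. Of 28 amino acid and nutrient transporters 16 fell and 7 rose (24.9% and 22.5% of all tested genes), 15 were shared falls and 4 shared rises (15.9% and 14.8%), and the drug difference interval lay within 1 of 0 for 20. SLC7A5, the main importer of large neutral amino acids, was at 617, 637 and 661 CPM in controls, 195, 221 and 264 CPM after vemurafenib and 208, 209 and 214.5 CPM after cisplatin. SLC7A11, the cystine importer, was at 120.5, 79.7 and 71.3 CPM in controls, 8.97, 22.9 and 24.4 CPM after vemurafenib and 23.3, 24.5 and 44.7 CPM after cisplatin. Without control replicate 1, and without control replicate 2, 3 transporters rose, and shared rises ranged from 2 (without control replicate 2 or vemurafenib replicate 2) to 6 (without vemurafenib replicate 1). SLC7A5 and SLC7A11 were picked as shared falls, so by the rule no treated library reached the lowest control. Their log2 changes were -1.55 (SE 0.10) and -1.91 (SE 0.29). The glucose transporter SLC2A12 fell by 1.58, and SLC7A8, another amino acid carrier, rose by 2.28 from 0.929 to 2.57 CPM in controls. SLC7A5 and SLC7A11 are also targets of ATF4, the transcription factor of amino acid shortage. In that list 19 of 29 fell and 4 rose, with 11 shared falls (37.9%, against 15.9% of tested genes). VLDLR, a lipoprotein receptor, was among the shared falls (log2 change -1.34). In lipid metabolism the desaturase genes FADS1 and FADS2 had log2 changes of -0.93 and -0.90.

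Proliferation genes fell in both drugs, but by very different amounts. All 42 mitosis genes fell and 41 were shared falls (97.6% of the list, against 15.9% of tested genes). Their median log2 change of -3.22 joins -1.03 after vemurafenib and -5.21 after cisplatin. Of 40 DNA replication genes 38 fell and 24 were shared falls (60%), with medians of -0.49 after vemurafenib and -2.19 after cisplatin. The drugs differed in all 42 mitosis and all 40 replication genes, always with the lower level after cisplatin. HMMR, a spindle assembly protein, was at 93.3, 98.1 and 107 CPM in controls, 36.4, 37.2 and 29.9 CPM after vemurafenib and 0.900, 0.746 and 0.666 CPM after cisplatin. MKI67, the standard marker of cycling cells, was at 469, 539 and 578 CPM in controls, 235, 306 and 314 CPM after vemurafenib and 10.7, 9.64 and 6.06 CPM after cisplatin. The 3 groups formed separate steps for both genes, with no overlap. The kinetochore gene CENPF and the mitotic kinesin KIF14 had shared log2 changes of -3.67 and -3.34. The origin licensing genes CDT1 and ORC1 had -2.78 and -2.36, and the thymidine kinase TK1 -2.99. These means join unlike changes after vemurafenib and cisplatin, -1.60 and -3.96 for CDT1, -1.149 and -3.565 for ORC1 and -0.91 and -5.06 for TK1. In bulk RNA, fewer dividing cells and less RNA per dividing cell cannot be told apart. With the treated libraries as 1 group of 6, 5 mitosis and 5 replication genes passed, and MKI67 (adjusted p = 0.267) and HMMR (adjusted p = 0.14) did not. In that fit TK1 (adjusted p = 0.198), CENPF (0.0899), KIF14 (0.0514) and ORC1 (0.0511) did not pass either, while CDT1 kept its call.

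Promoters of mitosis genes commonly hold a CHR element, TTTGAA, with CCAAT letters upstream of it. On either strand, TTTGAA was found in 28 of 36 windows of the shared falls of the list, against 10.0% of all windows and 12.5% of those of all shared falls, and CCAAT in 27 of 36, against 36.7%. All tested members of the list held TTTGAA in 29 of 37 windows and CCAAT in 28 of 37. The E2F letters TTTCCCGC were found in 6 of 21 windows of the DNA replication shared falls, against 2.52%, and TTTGGCGC in 4 of 21, against 1.10%. All tested DNA replication genes held TTTCCCGC in 9 of 33 windows and TTTGGCGC in 6 of 33. The windows of the first 3 mitosis genes are shown because they differ in these letters, with both motifs in HMMR (chr5:163460512-163460631, plus strand) and CCAAT alone in the stretches of CENPF (chr1:214603067-214603186, plus strand) and KIF14 (chr1:200620752-200620871, minus strand). CDT1 (chr16:88803662-88803781, plus strand) shows the E2F letters as their reverse complement.
HMMR: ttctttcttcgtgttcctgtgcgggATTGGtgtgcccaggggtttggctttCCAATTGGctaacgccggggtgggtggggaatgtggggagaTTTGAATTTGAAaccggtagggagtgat
CENPF: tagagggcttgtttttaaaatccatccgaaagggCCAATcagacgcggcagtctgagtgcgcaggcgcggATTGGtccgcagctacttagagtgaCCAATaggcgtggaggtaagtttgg
KIF14: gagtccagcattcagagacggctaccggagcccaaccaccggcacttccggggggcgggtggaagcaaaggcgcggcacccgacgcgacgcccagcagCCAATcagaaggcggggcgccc
CDT1: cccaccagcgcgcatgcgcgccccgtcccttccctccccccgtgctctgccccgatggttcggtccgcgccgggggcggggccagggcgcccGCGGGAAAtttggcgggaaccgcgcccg
ORC1 and TK1 had neither E2F letters in this part of their windows.

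Genes of the nuclear lamina and chromatin that decline in senescence fell in 14 of 14 cases. Shared falls numbered 11 (78.6% of the list, against 15.9% of tested genes). LMNB1, the lamin B1 gene, was at 127, 124 and 156 CPM in controls, 75.0, 70.0 and 70.1 CPM after vemurafenib and 4.50, 5.29 and 4.06 CPM after cisplatin. The chromatin protein HMGB2 and the DNA methylation cofactor UHRF1 had shared log2 changes of -3.03 and -2.32, again with separate steps, and the drugs differed in all 14 genes. As 1 group of 6, 4 of the 14 passed, and LMNB1 did not (adjusted p = 0.182). Of 10 cyclins and kinases of G1, the phase before DNA replication, 8 fell. Shared falls numbered 6 (60% of the list, against 15.9% of tested genes). CCND1, the cyclin D1 gene, was at 826, 788 and 813 CPM in controls, 107, 114 and 182 CPM after vemurafenib and 326, 338 and 416 CPM after cisplatin, the reverse order of the mitosis genes. CDC25A, a phosphatase that activates cyclin-dependent kinases, and the kinase CDK2 had log2 changes of -2.25 and -1.19.

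None of the 6 tested inhibitors of cyclin-dependent kinases was a shared rise, and 3 were shared falls (14.8% and 15.9% of all tested genes). CDKN2A, which encodes the inhibitor p16, was at 4.50, 5.58 and 5.20 CPM in controls, 2.15, 1.81 and 1.96 CPM after vemurafenib and 3.12, 2.44 and 2.13 CPM after cisplatin. CDKN2D and CDKN1C had log2 changes of -1.38 and -1.94, and CDKN1C lost its call with the treated libraries as 1 group of 6 (adjusted p = 0.194). CDKN1A, the p21 gene, passed the test of the mean (0.94, SE 0.11, adjusted p = 4.3e-05) without being a shared rise. CDKN1A was at 372, 293 and 315 CPM in controls, 311, 265 and 302 CPM after vemurafenib and 1209, 1337 and 1504 CPM after cisplatin, so vemurafenib and control libraries overlapped. Of 29 p53 targets 16 rose and 1 fell in the mean, but 4 were shared rises (13.8%, against 14.8% of tested genes). The drugs differed in 24, with 23 higher after cisplatin and 1, PLK2, higher after vemurafenib. Medians of the list were -0.004 after vemurafenib and 1.07 after cisplatin. As 1 group of 6, 5 rose. The shared rises included PLK2, a stress-induced kinase, at 63.3, 64.6 and 63.9 CPM in controls, 241, 279 and 262 CPM after vemurafenib and 165, 187 and 201 CPM after cisplatin. TP53I3, an oxidoreductase, rose by 1.26 (SE 0.12) with a drug difference interval of -0.25 to 0.33, and TIGAR, a fructose bisphosphatase, by 1.16 (SE 0.10). PMAIP1, a cell death gene of the same list, was the one that fell, with a log2 change of -1.79. GDF15 did not pass in the mean (0.36, adjusted p = 0.192), which joins -0.10 after vemurafenib and 0.81 after cisplatin and describes neither.

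**Figure D3:**
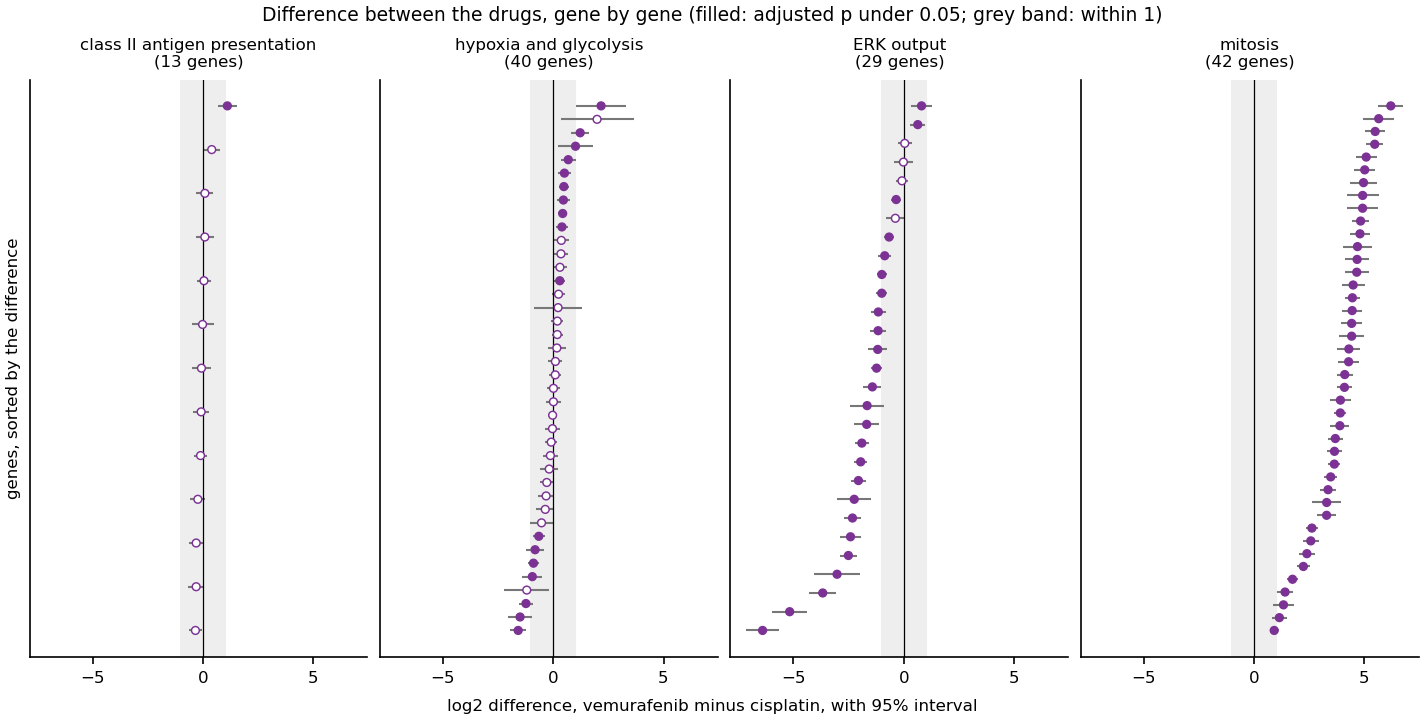
Difference between the drugs (vemurafenib minus cisplatin, log2) with its 95% interval for each tested gene of 4 lists, filled where the adjusted p was under 0.05, with a grey band within 1 of 0. Of the 13 listed class II genes, which leave out HLA-DQB2, 12 lie inside the band with their whole interval. Of 40 hypoxia and glycolysis genes 26 do, while all 42 mitosis genes are higher after vemurafenib and 23 of 29 ERK output genes are higher after cisplatin.

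The canonical secretory genes of senescence, NF-kB-driven cytokines, chemokines and proteases, fell in 19 of 24 tested cases and rose in 2. Of these, 13 were shared falls (54.2% of the list, against 15.9% of tested genes) and 1 a shared rise (4.2%, against 14.8%). The median log2 change was -2.74 after vemurafenib and -1.02 after cisplatin, and the drugs differed in 16. CXCL8, a neutrophil-attracting chemokine, was at 823, 1079 and 836 CPM in controls, 145, 210.1 and 250.2 CPM after vemurafenib and 211, 183 and 159 CPM after cisplatin. IL1A, the cytokine upstream of the programme, was at 221, 288 and 164 CPM in controls, 13.1, 22.8 and 19.3 CPM after vemurafenib and 138, 121 and 103 CPM after cisplatin. The drug difference of CXCL8 had an interval of -0.29 to 0.55, and IL1A was lower after vemurafenib (log2 difference -2.71). The shared rise was CCL2, a monocyte-attracting chemokine, whose lowest cisplatin library (12.15 CPM) was barely above its highest control (12.08 CPM), while vemurafenib libraries were at 144 to 282 CPM. As 1 group of 6, 12 genes of the list fell and none rose, IL1A had an adjusted p of 0.115 and CCL2 of 0.0616. Among 15 NF-kB subunits and feedback genes, which NF-kB itself induces, 9 fell and none rose. Shared falls numbered 6 (40% of the list, against 15.9% of tested genes). TNFAIP3, the feedback inhibitor A20, was at 98.2, 101 and 112 CPM in controls, 23.6, 25.9 and 31.6 CPM after vemurafenib and 37.0, 42.8 and 45.7 CPM after cisplatin. The subunit gene NFKB2 and the cofactor NFKBIZ had log2 changes of -1.44 and -1.10.

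Output genes of ERK signalling, the pathway that vemurafenib blocks, fell in 21 of 29 cases and rose in 2. Of these, 10 were shared falls (34.5% of the list, against 15.9% of tested genes) and 1 a shared rise (3.4%, against 14.8%). Medians were -1.65 after vemurafenib and -0.12 after cisplatin, and the drugs differed in 25 genes. LIF, a cytokine of the interleukin 6 family, was at 303, 294 and 257 CPM in controls, 26.7, 23.8 and 25.1 CPM after vemurafenib and 109, 97.0 and 76.1 CPM after cisplatin. HMGA2, an architectural chromatin protein, and ETV4, a transcription factor, had log2 changes of -2.35 and -2.02. HBEGF, a ligand of the EGF receptor, rose by 0.97 (SE 0.13). The ERK phosphatase gene DUSP6 passed in the mean (-0.69, SE 0.09) with cisplatin libraries (355 to 418 CPM) overlapping the controls (389 to 430.3 CPM), and MYC did not pass (-0.37, adjusted p = 0.101). As 1 group of 6, 8 genes of the list fell and 1 rose.

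Notch and Wnt pathway genes fell with near-equal medians in both drugs, while single members differed. The drugs differed in 10 of 20 Notch and 15 of 30 Wnt genes, and the interval of the difference lay within 1 of 0 in 8 and 13, where it did so in 66.0% of all tested genes. Of 20 Notch pathway genes 14 fell and none rose, with 9 shared falls (45%, against 15.9% of tested genes). Medians were -0.82 after vemurafenib and -0.73 after cisplatin. LFNG, which adds sugars to Notch receptors, was at 6.0, 6.04 and 7.64 CPM in controls, 1.82, 0.811 and 1.10 CPM after vemurafenib and 1.32, 1.15 and 1.47 CPM after cisplatin. HES2, a repressor of the HES family, had 280 counts summed over the controls, 2 over the vemurafenib libraries and 81 over the cisplatin libraries, and its call was lost as 1 group of 6 (adjusted p = 0.0725). JAG2, a Notch ligand, had a shared log2 change of -2.55, and of -0.80 on the scale of log2(TPM + 1), with the lower level after vemurafenib. Of 30 Wnt pathway genes 20 fell and 4 rose, with medians of -0.52 and -0.55. Of these, 13 were shared falls (43.3%, against 15.9% of tested genes) and 1 a shared rise (3.3%, against 14.8%). The ligand WNT5A and the transcription factor TCF7L1 had log2 changes of -1.71 (SE 0.17) and -1.18 (SE 0.17), with drug difference intervals of 0.08 to 0.99 and -0.50 to 0.42, and NKD1, a feedback inhibitor, -2.08 with the lower level after cisplatin. On the scale of log2(TPM + 0.1), 8 genes of the Wnt list were shared falls.

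Lysosome and autophagy genes rose in 33 of 46 cases and fell in 3. Of these, 27 were shared rises (58.7% of the list, against 14.8% of tested genes) and 1 a shared fall (2.2%, against 15.9%). Medians were 0.32 after vemurafenib and 0.77 after cisplatin, and the drugs differed in 29 genes, 24 of them higher after cisplatin. TPP1, a lysosomal peptidase, was at 133, 135 and 121 CPM in controls, 305, 326 and 312 CPM after vemurafenib and 277, 305 and 350.4 CPM after cisplatin, with drugs overlapping and a rise of 1.27 (SE 0.10). The cathepsins CTSK and CTSO rose by 2.41 (SE 0.12) and 2.39 (SE 0.23). GUSB, a beta-glucuronidase, was the shared fall (-0.37, adjusted p = 0.00894), and its call was lost without control replicate 1 (adjusted p = 0.0543). The palindrome CACGTG, which the lysosomal regulator TFEB can bind, was found in 8 of 14 windows of the shared rises, against 9.97% of all windows. All tested members of the list held it in 9 of 30 windows. The TPP1 stretch before the start had none, and CTSO and CTSK had no sequence at hand. Genes of the unfolded protein response, which serves secretory protein folding, rose in 14 of 22 cases with 1 fall. Shared rises numbered 8 (36.4% of the list, against 14.8% of tested genes). Medians were 0.22 after vemurafenib and 0.58 after cisplatin, and the drugs differed in 12 genes, all higher after cisplatin. The chaperone genes HYOU1, CRELD2 and DNAJB11 rose by 0.93, 0.89 and 0.74, and EDEM1, a gene of protein disposal, fell by 1.16.

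**Figure D4:**
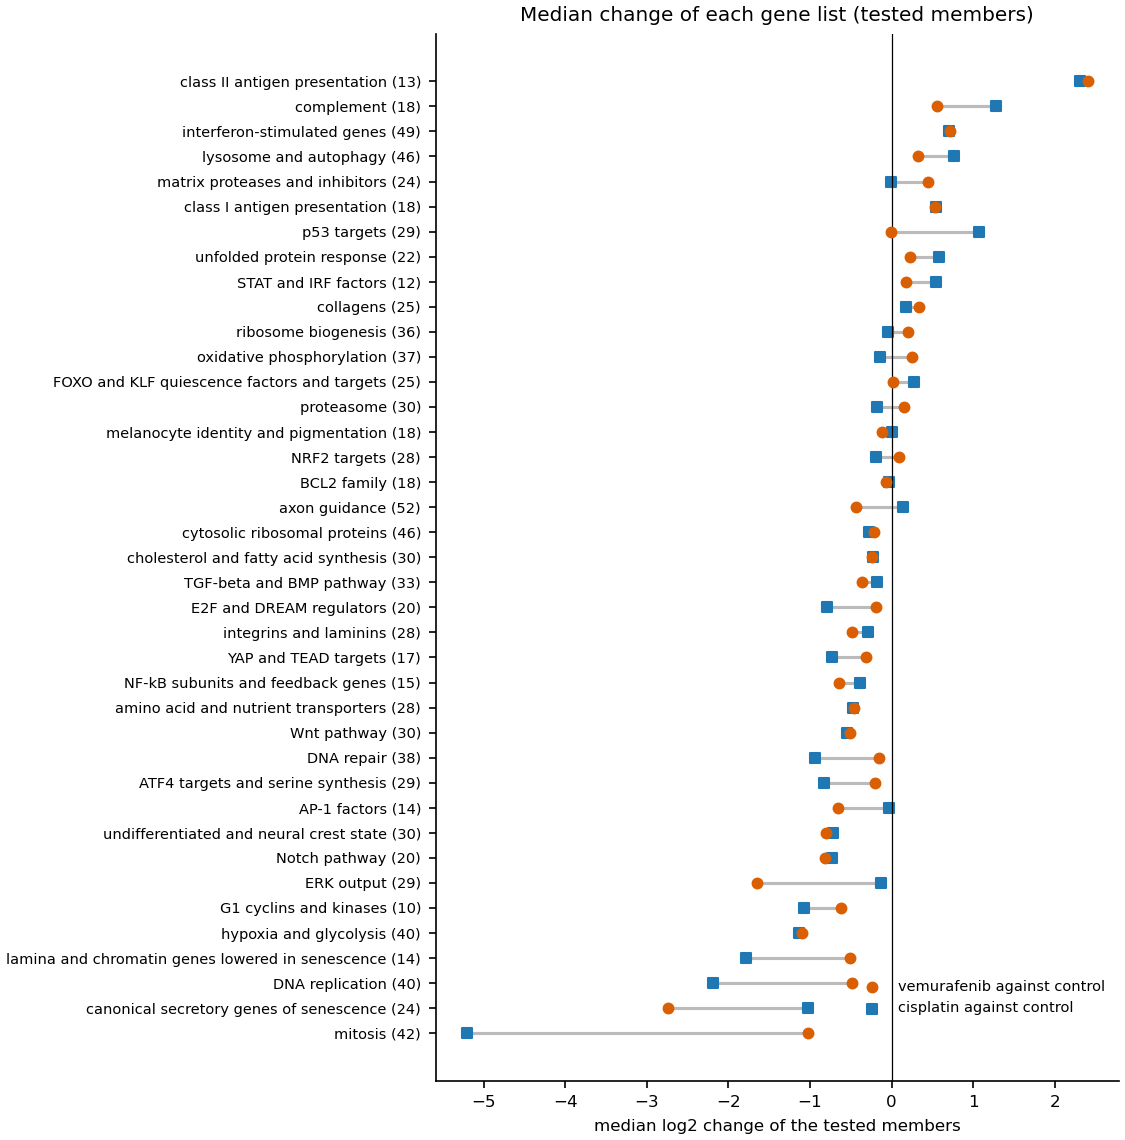
Median log2 change of the tested members of each list with at least 10 of them (number in brackets), for vemurafenib (orange circles) and cisplatin (blue squares), each against the same 3 controls. Class II genes (2.41 and 2.32) and hypoxia and glycolysis genes (-1.10 and -1.13) have nearly the same median in both drugs, and mitosis genes (-1.03 and -5.21) the widest gap.

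Among genes that mark the state of melanoma cells, shared falls stood above the share over all tested genes and shared rises did not. In the list of the undifferentiated and neural crest states, 18 of 30 fell and 7 rose (24.9% and 22.5% of all tested genes). Of these, 14 were shared falls and 3 shared rises (46.7% and 10% of the list, against 15.9% and 14.8%), and the drugs differed in 23. EGFR, a receptor kinase tied to inhibitor tolerance, was at 23.0, 32.1 and 33.4 CPM in controls, 2.86, 10.0 and 9.55 CPM after vemurafenib and 8.17, 7.06 and 6.06 CPM after cisplatin. The collagen crosslinker LOXL2 and the receptor kinase genes FGFR1 and AXL had log2 changes of -2.69, -2.09 and -0.97. NGFR, the nerve growth factor receptor of the neural crest state, moved apart in the drugs, with 6.98 to 11.2 CPM in controls, 160.3 to 208 CPM after vemurafenib and 0.611 to 1.07 CPM after cisplatin, so its mean change of 0.50 (adjusted p = 0.0548) describes neither. MITF, the melanocyte lineage factor, passed in the mean (0.63, adjusted p = 0.00481), with cisplatin libraries at 32.8 to 39.8 CPM among controls at 34.8 to 37.6 CPM. TXNIP, an inhibitor of thioredoxin, did not pass (0.84, adjusted p = 0.0631) and did so in 6 of 19 alternatives.

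Markers of other cell types gave these values. Epithelial markers fell in 4 of 6 tested cases, all 4 shared falls (against 15.9% of tested genes). Their summed levels were 506 to 551 TPM in controls, 156 to 229 TPM after vemurafenib and 401 to 419 TPM after cisplatin. Most of the sum came from the keratin gene KRT18, at 360 to 410 TPM in controls, 119 to 185 TPM after vemurafenib and 271 to 300 TPM after cisplatin. CDH1, EPCAM, TP63 and KRT5 were under 0.5 TPM in every library. KRT14, a keratin of basal skin cells, had a log2 change of -3.21 from 4.32 to 7.25 TPM in controls, with a drug difference interval of -1.15 to 1.07. The junction gene CLDN4 had a log2 change of -2.10 and the cornified envelope gene SPRR2D of -3.85, the latter with the lower level after vemurafenib and no call as 1 group of 6 (adjusted p = 0.305). KRT8, a keratin of simple epithelia, was at 23.3 to 29.6 TPM in controls, 14.2 to 19.8 TPM after vemurafenib and 44.7 to 60.8 TPM after cisplatin. KRT10, a keratin of upper skin layers, was at 12.7 to 17.1, 16.7 to 21.1 and 17.97 to 21.0 TPM. Fibroblast markers summed to 11.8 to 15.3 TPM in controls, 21.0 to 35.5 TPM after vemurafenib and 13.5 to 29.2 TPM after cisplatin, and endothelial markers to 11.2 to 13.6, 10.7 to 17.8 and 23.6 to 25.6 TPM. What part these cell types have in any change was not tested.

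Ribosomal protein, proteasome and oxidative phosphorylation genes had few shared changes with all libraries, and these counts depended on vemurafenib replicate 1. Of 46 cytosolic ribosomal protein genes 7 fell and 1 was a shared fall, RPL10 (2.2% of the list, against 15.9% of tested genes). Without vemurafenib replicate 1, 43 fell and 24 were shared falls, and without control replicate 1, 1 fell. Of 30 proteasome genes 2 rose and 1 fell, with 2 shared rises (6.7%, against 14.8% of tested genes), and all 3 lost their call as 1 group of 6. Without vemurafenib replicate 1, 10 proteasome genes fell and 4 were shared falls. Oxidative phosphorylation genes had 4 shared rises and 3 shared falls among 37 (10.8% and 8.1%, against 14.8% and 15.9%), and without that library 4 and 7. DNA repair genes had 18 shared falls among 38 (47.4%, against 15.9% of tested genes) and no shared rise, or 19 and 5 without that library. As 1 group of 6, 4 DNA repair genes fell and 2 rose. The plot of shares shows the lists against the background of all tested genes.

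**Figure D5:**
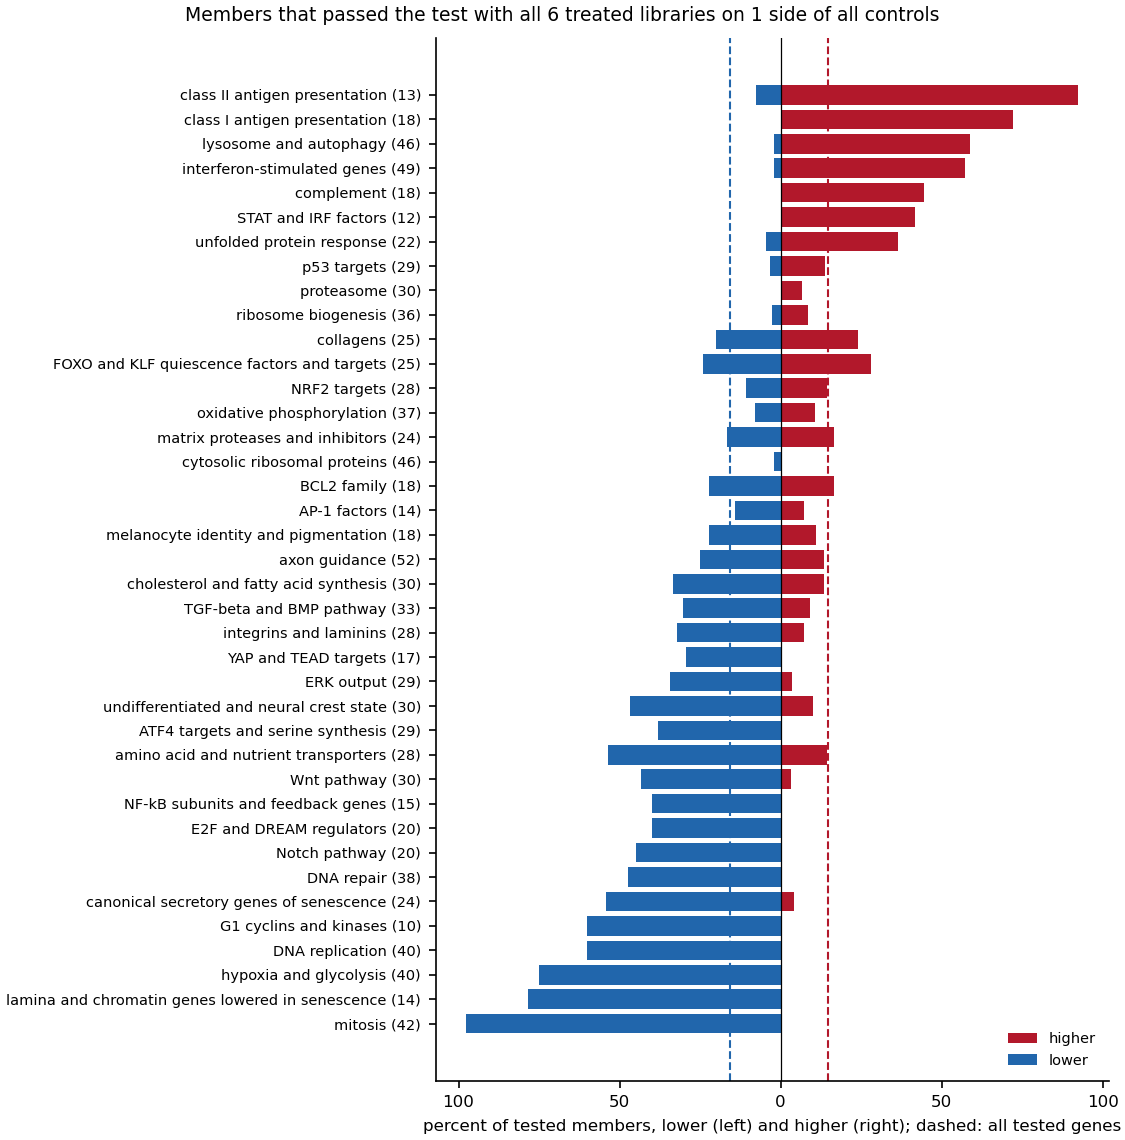
Percent of tested members of each list that were shared rises (red, right) or shared falls (blue, left), with dashed lines at the shares over all tested genes, 14.8% and 15.9%. Class II (92.3% higher) and mitosis genes (97.6% lower) are at the ends, and p53 targets (13.8% higher) lie near the line.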

How the data were processed

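RNA of 9 A375 samples was sequenced, 3 per group. The submitters' processing notes name the aligner HISAT2 2.0.4 and the build hg38. How reads were counted, on which annotation and with or without strand is not given in the sources used here. Each row of the deposited table holds estimated counts per gene, which need not be whole, beside FPKM and TPM values that the authors computed. FPKM served only, together with the counts, to derive the effective lengths given above. Genes overlapping an antisense partner, and near copies, cannot be told apart by these counts.

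Estimated counts were rounded, filtered with filterByExpr (14001 of 18430 genes kept), scaled by TMM and fitted with edgeR 4.0.16 in R 4.3.3 as 3 group means over 9 libraries (6 residual degrees of freedom, biological coefficient of variation 0.139). The quasi-likelihood test compared the mean of both drugs with control, and vemurafenib with cisplatin, with Benjamini-Hochberg adjustment over all tested genes and a threshold of 0.05. Adjusted p-values in the report come from this test unless another is named. The code was checked on simulated data. Library totals of 14481020 to 16038475 counts limit precision for genes of few counts.

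Genes named are the 12 largest rises and falls by the smaller of both drugs' changes with at least 50 counts on average in the higher group, up to 3 members per list in its leading direction and 1 in the other, and a short panel. Some genes that this rule names are not reported here. CIITA, CD74, VEGFA and CXCL11 were added after their values were seen. The members and the 44 gene lists were chosen with earlier results of these data known. Gene identifiers (18149 matched) and promoter sequences are from RefSeq, GRCh38.p14. The 19 alternatives covered scaling, filters, limma 3.58.1, DESeq2 1.42.0, log2(TPM + 1) and log2(TPM + 0.1), pooling of the treated libraries, a replicate block and each library left out. Genes with no value in the table used were not analysed here.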

Additional observations from a re-analysis of the deposited data

Results flagged for a closer look

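Of 108 genes of the report compared between the drugs, 64 had effects of both drugs against the same controls that differed by the test of vemurafenib against cisplatin (edgeR quasi-likelihood test, Benjamini-Hochberg adjusted p from 7.96e-09 to 0.0359). 29 were higher after vemurafenib and 35 after cisplatin. The values below are log2 differences, vemurafenib minus cisplatin. Among the mitosis, DNA replication, lamina and chromatin genes the differences were UHRF1 2.20, CDT1 2.36, ORC1 2.42, KIF14 3.29, HMGB2 3.91, LMNB1 3.95, CENPF 4.10, TK1 4.15, MKI67 5.02 and HMMR 5.47. Among the cyclin, kinase, kinase inhibitor and p53 target genes the differences were CDKN1C -2.80, CDKN1A -2.20, CCND1 -1.42, GDF15 -0.91, TIGAR -0.77, PMAIP1 -0.69, CDK2 -0.44, PLK2 0.50 and CDC25A 2.16. Among the secretory, NF-kB and ERK output genes the differences were IL1A -2.71, HMGA2 -2.05, SERPINB2 -2.02, LIF -1.90, CSF2 -1.81, DUSP6 -1.23, ETV4 -1.16, HBEGF -0.86, NFKB2 -0.67, TNFAIP3 -0.63 and CCL2 3.86. Among the interferon, antigen presentation and complement genes the differences were HLA-DQB2 -2.59, TRIM22 -1.27, STAT2 -0.59, IFI6 -0.45, IRF9 -0.42, IFIT2 1.00, HLA-DOA 1.11 and C1S 2.62. Among the melanoma state and other cell type genes the differences were SPRR2D -6.12, CLDN4 -1.12, FGFR1 -0.87, AXL -0.51, S100B 0.97, MITF 1.14, LOXL2 1.93 and NGFR 7.67. Among the Notch, Wnt, transport, lipid, lysosome and protein folding genes the differences were HES2 -5.20, JAG2 -2.05, EDEM1 -0.72, HYOU1 -0.31, FADS1 0.50, CTSK 1.12, SLC7A8 1.22 and NKD1 1.85. Among the other genes, which are from the largest rises and falls, they were PLEK2 -3.58, ESM1 -2.98, TCN1 -1.65, MUC7 -1.50, ITGB4 -1.25, FOLH1 0.67, PIM1 0.97, RELN 1.88, MERTK 2.10 and TAC1 2.48. HES2 and PLEK2 rest on 2 and 1 counts summed over the vemurafenib libraries, so their size is uncertain. Dose, exposure and time without drug differed between the drugs, and their part in these differences cannot be told apart from the drug.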

How the results depend on the processing

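None of 165 genes, those named by rule with CIITA, CD74 and VEGFA added, changed sign in the 19 alternatives. With the treated libraries as 1 group of 6, 27 of the 165 lost their call. The medians of 8 lists changed sign in at least 1 alternative (blood cell, fibroblast and endothelial markers, melanocyte identity, FOXO and KLF targets, axon guidance, oxidative phosphorylation and proteasome). With the treated libraries as 1 group of 6, 1697 genes were higher and 1504 lower, and 1469 genes were both lower and clear of the controls. Leaving out 1 library at a time gave 2392 to 4118 genes higher and 2839 to 4489 lower, of which 1909 to 2797 and 2149 to 2975 were clear of the controls. Among genes that passed and lay clear of the controls, those higher after vemurafenib than after cisplatin numbered 812 to 1469 (977 with all libraries, 1469 without vemurafenib replicate 1) and those higher after cisplatin 604 to 1155 (781 with all). The share of calls that were higher was 47.4% with TMM, 56.9% with total counts, 58.2% on log2(TPM + 1) and 57.9% on log2(TPM + 0.1), so the majority of calls turned from lower to higher, and the median of all genes ranged from -0.008 to 0.082. With the replicate block 3305 genes were higher and 3672 lower, 2068 and 2229 of them clear of the controls. The labels do not tie replicate numbers to a shared culture or day. Deviations from group means of same-numbered libraries correlated at 0.014 to 0.209, all positive. They were above 0.1 for every control and vemurafenib pair (0.136 to 0.184) but not for all pairs with cisplatin, so the block was kept as an alternative. Cisplatin replicates 2 and 3 correlated best with their own number among controls and not among vemurafenib libraries. NGFR passed in 7 alternatives and TXNIP in 6. Genes of few counts, such as ZP4 and PLEK2, are limited by depth.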
